A study of Drosophila melanogaster with 12 samples.

Results

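RNA from the guts of adult mated females carrying UAS-PntRNAi under the S106 GeneSwitch driver was compared between 3 libraries of induced flies, numbered 107, 108 and 109, and 3 libraries of uninduced flies, numbered 110, 111 and 112. These 6 libraries, of 12 in the series, were chosen by their tissue and induction labels, and all 10358 genes of the gut count table were examined. The driver is active in gut and fat body of flies that eat RU486, so that a gut library also reports on flies whose fat body was induced. Induced flies were fed 200 µM RU486 for 6 days after 48 h of mating. Control flies carried the same driver and transgene on the same outbred Dahomey background and, per the study's methods, received ethanol vehicle, although the treatment text in the labels gives 200 µM RU486 for every sample. Each library was made from pooled guts of 12 flies with the tubules removed. Control flies fed RU486 without the transgene were not among the samples analysed here, so effects of the inducer and of the RNAi cannot be told apart. The labels do not say whether libraries came from separate cultures, and the p-values measure the spread between these libraries.

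The gene pnt encodes Pointed, an ETS transcriptional activator that acts at the end of the EGF receptor and Ras/MAPK pathway. In the adult fly midgut, intestinal stem cells divide to replace absorptive enterocytes and hormone-secreting enteroendocrine cells, and EGF receptor signalling is known to drive that division. Enterocytes secrete proteases, amylases and maltases, take up sugars and lipids, and lie behind the peritrophic matrix, a sheet of chitin bound by peritrophin proteins. They also carry detoxification enzymes such as cytochrome P450s, glutathione S-transferases and UDP-glycosyltransferases.

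Induced libraries held 5916313, 8889127 and 7482854 counts and control libraries 8154734, 10254951 and 7172991, and the biological coefficient of variation between libraries of a group was 33.9%. Levels below are CPM, counts scaled to a common library total with TMM factors, and log2 fold changes are induced against control. Enterocyte transcripts marked every library: the 11 genes of that list summed to 14270 to 28420 CPM. The fat body storage protein gene Lsp2 stayed between 0 and 1.84 CPM, while the list of 5 measured fat body markers summed to 69.8 to 119 CPM. On the first principal component of log2 CPM, which held 49.3% of the variance, control 112 lay at -45.0 beside induced 107 at -39.0. The other induced guts lay at 3.94 (108) and -13.6 (109), and the other controls at 32.5 (110) and 61.1 (111). Control 112 thus stood apart from the other controls, and calls are given for fits with it and without it. Transcripts of neighbouring tissue also varied. The 17 ovary markers had mean log2 CPM of 1.0, 2.61 and 2.74 in induced and 1.55, 3.69 and 0.45 in control guts, and the tubule gene Uro stood at 116, 5.32 and 4.02 CPM in the induced guts and 51.4, 52.8 and 10.8 CPM in control guts.

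The libraries also differed by transcript length. Genes were ordered into 10 classes of exon length. In the shortest class (up to 789 bases) the median deviation from the 6-library mean was 0.41, -0.03 and 0.06 log2 CPM in induced libraries 107, 108 and 109. In controls 110, 111 and 112 it was -0.23, -0.48 and 0.27. For genes of 2413 to 3037 bases the order turned, with -0.22, 0.02 and -0.04 in induced and 0.17, 0.31 and -0.20 in control guts. Library 112 followed the course of induced library 107 up to 3956 bases and rose to 0.18 among the longest genes. The median log2 fold change accordingly ran from 0.25 in the shortest class to -0.24 at 3038 to 3956 bases, and without 112 from 0.53 to -0.32 at 2413 to 3037 bases. Length is therefore given beside the gene lists it moves with, and a fit with gene-wise length offsets, chosen after the data were seen, was run beside the main one.

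**Figure D1:**
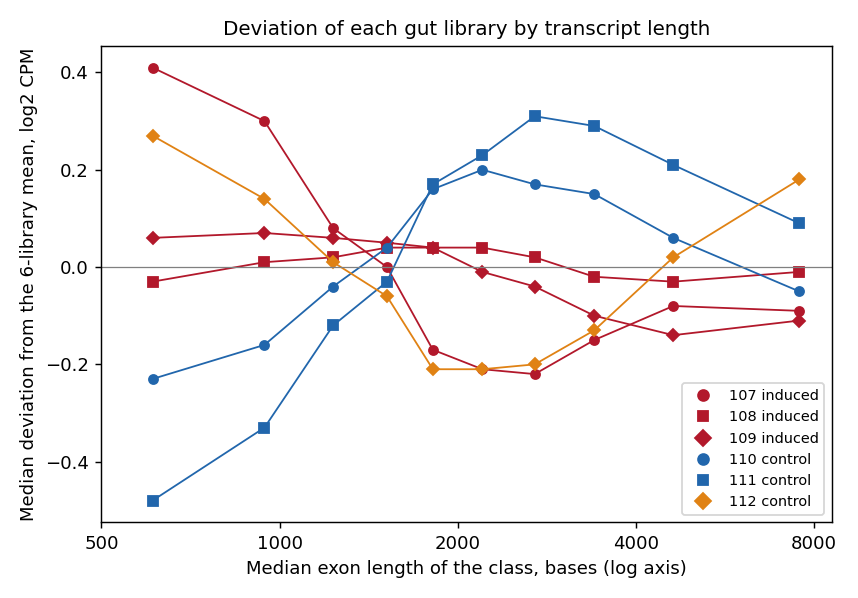
Median deviation of each gut library from the mean of the 6 libraries (log2 CPM, vertical axis) for 10 classes of genes ordered by exon length (bases, log axis). Each point is the median over 874 to 881 genes, with induced libraries in red, controls 110 and 111 in blue and control 112 in orange, and 112 runs with induced 107 among short and middle lengths.

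The targeted transcript, pnt, had a lower mean in induced guts without passing the test. Its level was 22, 22 and 24.4 CPM in the induced guts against 29.2 and 31.8 CPM in controls 110 and 111, whereas control 112, at 23.8 CPM, lay inside the induced range. The log2 fold change of pnt was -0.31 with all libraries and -0.41 without 112 (standard errors 0.21 and 0.17), and neither passed (adjusted p = 0.838 and 0.164 from edgeR). A two-sided exact permutation test of the 6 pnt values gave p = 0.2, where 3 libraries against 3 allow no p below 0.1.

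With all 6 libraries, 5 genes were higher in induced guts and 0 lower at 10% FDR by edgeR's quasi-likelihood test (0.0483% of genes), and 562 genes (5.43%) had an unadjusted p under 0.05. DESeq2 called 43 genes (0.415% of genes), 37 higher (0.357%) and 6 lower (0.0579%), the 5 among them. Of these 43 genes, 40 code for proteins, and their median exon length was 1122 bases against 1947 over all genes tested. Induced and control libraries did not overlap in 42 of them, against 1055 of all genes tested (10.2%). Calling genes on the same 6 libraries favours such a separation. By the length offset all 43 kept their sign, while edgeR with that offset called 0 genes of 10358 (498 had an unadjusted p under 0.05). Without 112, edgeR called 41 of the 43, all but CG5892 and CG42780 (adjusted p = 0.137 and 0.126), and DESeq2 called 39, giving no adjusted p for Hsp70Bb, CG14309 and CG42780. DESeq2 called 14 of the 43 whichever library was left out, and 10 of them in at most 2 of the 6 such fits. Single libraries moved the number of genes called by DESeq2. It was 90 without 107 (0.869%), 26 without 108 (0.251%), 18 without 109 (0.174%), 39 without 110 (0.377%), 42 without 111 (0.406%) and 1941 without 112 (18.7%).

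**Figure D2:**
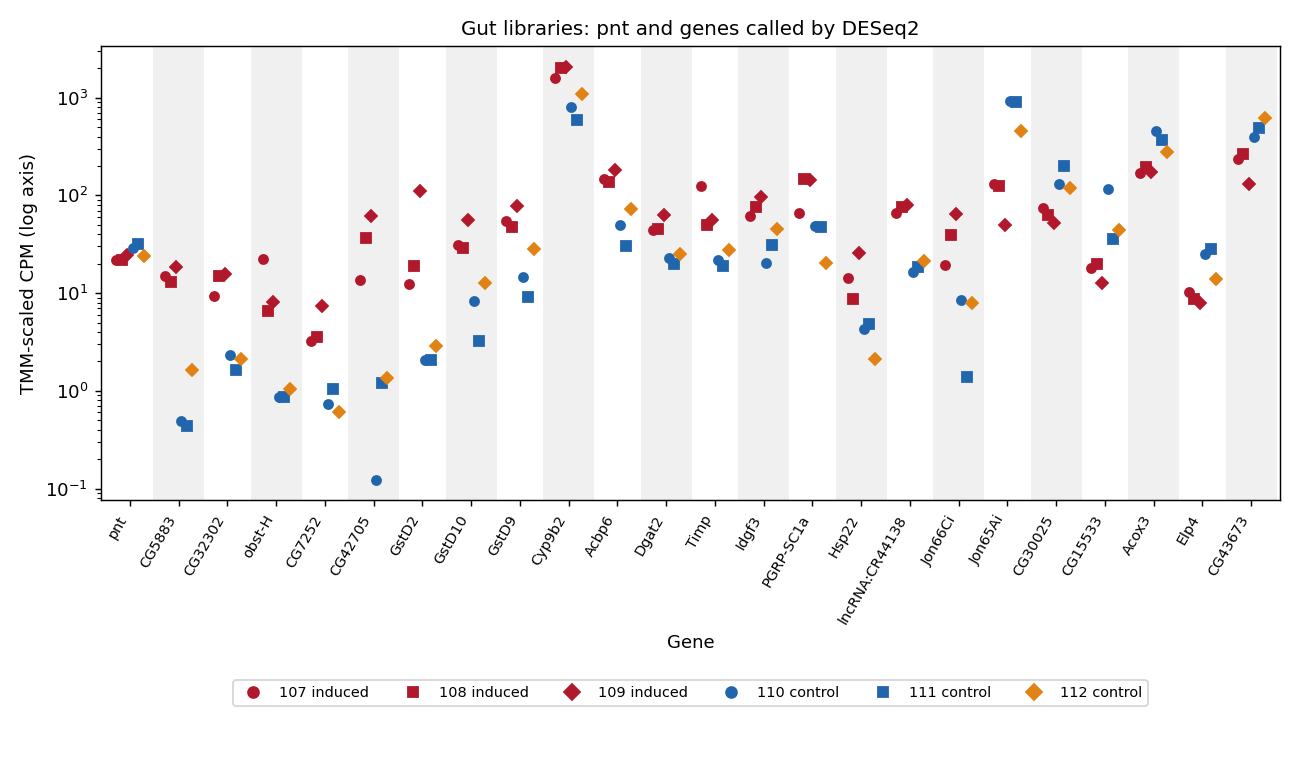
TMM-scaled CPM (log axis) of pnt and 23 genes called by DESeq2 in each of the 6 gut libraries, with induced libraries in red, controls 110 and 111 in blue and control 112 in orange. For pnt, 112 lies among the induced libraries. In the called genes the groups do not overlap, and 112 lies nearer the other controls except in GstD9, Idgf3 and Elp4.

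Of the genes that rose, 4 encode chitin-binding proteins of the peritrophin type, and they were put together after the calls were seen. CG5883 (arm 3L, positions 11943640 to 11944852) measured 14.8, 12.9 and 18.5 CPM after induction and 0.491, 0.434 and 1.65 CPM in controls. Its neighbour CG7252 (3L, 11947675 to 11949248) stood at 3.21, 3.55 and 7.37 CPM against 0.736, 1.04 and 0.60 CPM. CG32302 (3L, 2268825 to 2269903) had 9.29, 15.1 and 15.7 CPM in induced guts against 2.33, 1.65 and 2.1 CPM. The fourth gene, obst-H (3L, 15528265 to 15529243), reached 22.3 CPM in library 107 and 6.541 and 8.04 CPM in 108 and 109, where controls held 0.859, 0.868 and 1.05 CPM. In all 4 genes control 112 lay with the other controls, and the lowest induced library exceeded the highest control. Ratios of the group means were 17.9 for CG5883, 5.94 for CG7252, 6.59 for CG32302 and 13.3 for obst-H. CG5883 and CG32302 passed by edgeR (adjusted p = 0.0761 for each), and CG7252 and obst-H by DESeq2 alone (adjusted p = 0.0136 and 3.3e-07). CG32302 overlaps yellow-g on the other strand, so its reads can belong to either. The list of 29 genes of chitin, peritrophic matrix and mucins holds obst-H and none of the other 3. In it 4 genes were higher in every induced library than in any control (5.38% of all genes were) and 0 lower (4.81%), and DESeq2 called obst-H alone. The median log2 fold change of that list was 0.07, with 15 of 29 above 0, beside -0.06 over all genes.

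Detoxification genes formed the second group. All 10 measured GstD glutathione S-transferase genes had log2 fold changes above 0, 7 of them were higher in every induced gut than in any control (5.38% of all genes were), and DESeq2 called GstD2, GstD9 and GstD10. Their mean log2 CPM over members came to 3.68, 3.84 and 4.63 after induction and 2.71, 2.22 and 3.20 in controls, so that 112 was the highest control and below each induced library. GstD10 (3R, 12364776 to 12365735) stood at 31.1, 28.7 and 56.4 CPM against 8.22, 3.21 and 12.6 CPM. The GstD genes are close paralogs in 1 cluster, and reads can be shared among them. Of 13 GstE genes, GstE1 alone did not overlap between the groups, at 44.7, 35.1 and 51.6 against 25.6, 23.2 and 34.5 CPM. Over 75 cytochrome P450 genes the median log2 fold change was 0.03, with 41 above 0. Of these genes, 12 were higher in every induced gut and 0 lower (5.38% and 4.81% of all genes), and DESeq2 called Cyp9b2. It stood at 1575, 2034 and 2080 CPM after induction and 796, 594 and 1099 CPM in controls (adjusted p = 0.0242 from DESeq2, and 0.836 from edgeR). Cyp6a8, at 141, 95.4 and 205 against 57.9, 48.7 and 91.5 CPM, and Cyp28d2, at 12, 9.2 and 8.17 against 2.82, 2.78 and 5.10 CPM, kept the groups apart without passing either test.

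Other genes that rose by DESeq2 act in lipid handling or are secreted, and they do not stand for a list. Acbp6, an acyl-CoA binding protein gene (3L, 7128903 to 7129673), stood at 148, 138 and 182 CPM in the induced guts against 49.6, 30.1 and 72.0 CPM, and its ratio of group means was 3.09 (adjusted p = 0.00194 from DESeq2). Dgat2, which encodes a diacylglycerol acyltransferase of triglyceride synthesis (2R, 7712578 to 7714182), had 43.9, 45.8 and 63.5 CPM against 23, 19.8 and 25.3 CPM, a ratio of 2.25 (adjusted p = 0.0120 from DESeq2). For both genes every induced library exceeded every control. The list of 13 genes of triglyceride and fatty acid synthesis, which holds Dgat2, had a median log2 fold change of -0.34 with 3 genes above 0, and among 17 genes of sterol and lipid transport (median 0.01) neither edgeR nor DESeq2 called any with all libraries, and 0 were higher and 2 lower in every induced gut. Timp, the tissue inhibitor of metalloproteases (3R, 10203875 to 10213007), stood at 124, 49.6 and 55.5 CPM in the induced guts and 22, 18.9 and 27.6 CPM in control guts (adjusted p = 0.00516 from DESeq2), and DESeq2 called it in all 6 fits that left a library out. It lies within Syn on the other strand, so its reads may not be separable. Idgf3, a secreted chitinase-like growth factor gene, had 61.2, 76.1 and 96.0 CPM against 20.1, 30.9 and 45.0 CPM, with adjusted p = 0.0698 from DESeq2 and a call in only 2 such fits. CG6330, a uridine phosphorylase gene, stood at 16.6, 21.8 and 20.8 against 8.34, 9.2 and 4.80 CPM, and sqz, encoding a zinc finger transcription factor, at 11.2, 7.10 and 8.85 against 4.29, 2.86 and 2.55 CPM. Both passed by DESeq2 (adjusted p = 0.0145 and 0.0805), with control 112 the lowest library for each.

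Among immune and stress genes, single members were higher. PGRP-SC1a, which encodes a secreted amidase that degrades peptidoglycan (2R, 8709733 to 8710320), stood at 66.1, 146 and 145 CPM after induction and at 48.6, 47.3 and 20.5 CPM in controls (adjusted p = 0.0203 from DESeq2). PGRP-SC1b, at 39.5, 70.5 and 68.5 against 35.1, 39.0 and 21.9 CPM, and PGRP-SC2, at 1209, 1402 and 1843 against 750, 710 and 939 CPM, kept the groups apart and passed neither test. PGRP-SC1a and PGRP-SC1b are close paralogs whose reads can be shared. Among 18 genes of peptidoglycan recognition and the Imd pathway, 5 were higher in every induced gut and 1 was lower in every one (5.38% and 4.81% of all genes). Among 22 antimicrobial peptide genes 4 were higher in every induced gut and 0 lower (beside the same 5.38% and 4.81%), and neither edgeR nor DESeq2 called any of them with all libraries (4 had an unadjusted edgeR p under 0.05). One of these, BomS3, stood at 30.7, 20.8 and 38.5 against 14.7, 14.8 and 17.5 CPM. Of 19 heat shock genes only Hsp70Bb and Hsp22 were called by DESeq2, and the list's median log2 fold change was -0.09. Hsp70Bb rested on 1 count in each control library and stood at 3.39, 3.22 and 4.96 CPM in the induced guts (19, 29 and 37 counts). Hsp22 stood at 14.1, 8.65 and 25.6 against 4.29, 4.77 and 2.1 CPM. Its counts were the same as those of CG4456 in every library, and Hsp70Bb has near-identical copies elsewhere, so the gene behind each is uncertain.

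The 6 genes that fell by DESeq2 include 2 serine protease genes of the digestive kind. Jon65Ai went from 930, 896 and 452 CPM in controls to 129, 124 and 49.7 CPM in induced guts, the largest change of the 6 (adjusted p = 3.9e-09 from DESeq2, with a log2 fold change of -2.88 and its standard error 0.41). CG30025, a trypsin-like gene (2R, 11353564 to 11354373), went from 130, 200 and 119 CPM to 75, 62.5 and 51.9 CPM, a ratio of controls to induced of 2.37 (adjusted p = 0.0155 from DESeq2). CG15533, an acid sphingomyelinase-like gene (3R, 30428820 to 30431362), stood at 117, 36.1 and 44.7 CPM in controls and 18.2, 19.7 and 12.6 CPM in induced guts, a ratio of 3.92. Acox3, which encodes an acyl-CoA oxidase, the first enzyme of peroxisomal fatty acid oxidation (2L, 6426724 to 6448403), went from 453, 366 and 277 CPM to 170, 194 and 174 CPM (adjusted p = 0.0357 from DESeq2). DESeq2 called Acox3 in only 1 of the 6 fits that left a library out. Elp4, a subunit of the Elongator complex, went from 25, 28 and 14.1 CPM to 10.4, 8.76 and 7.91 CPM. CG43673 stood at 398, 487 and 626 CPM in controls and 236, 263 and 130 CPM in induced guts. In all 6 genes each induced library lay below each control, and 112 was the lowest control for Jon65Ai, CG30025, Acox3 and Elp4 and the highest for CG43673. Of 33 trypsin and chymotrypsin genes, 3 were higher and 2 lower in every induced gut, shares of 9.09% and 6.06% beside 5.38% and 4.81% of all genes, and the list's median log2 fold change was -0.12. Jon66Ci, another serine protease gene, rose by DESeq2, from 8.59, 1.39 and 7.95 CPM in controls to 19.5, 39.1 and 64.3 CPM in induced guts. Jonah protease genes resemble each other, and reads can be shared among them.

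Of the 37 genes that rose, 3 are non-coding. lncRNA:CR44310 (2L, 3616296 to 3617619) had 103, 97.7 and 108 CPM after induction and 37.8, 30.7 and 36.0 CPM in controls, and lncRNA:CR44138 had 66.8, 76.4 and 79.2 against 16.6, 18.7 and 21.1 CPM. Spread within each group was small for both, and edgeR called both (adjusted p = 0.0761 and 0.0674). asRNA:CR44054 (X, 11139608 to 11141238) stood at 33.2, 59.0 and 56.5 against 12.6, 11 and 15.1 CPM. It overlaps CG15199 on the other strand, which DESeq2 called too, so that reads of this pair cannot be told apart. Over 554 long non-coding and antisense genes 35 were higher and 16 lower in every induced gut, shares of 6.32% and 2.89% beside 5.38% and 4.81% of all genes, with a median log2 fold change of 0.00. Other called genes had no place in these groups, and CG42705 and its neighbour CG42704 had among the largest ratios. CG42705 (X, 7413869 to 7414662) stood at 13.8, 36.8 and 61.2 CPM in the induced guts against 0.123, 1.22 and 1.35 CPM in controls, and CG42704 (X, 7412668 to 7413296) at 35.7, 82.7 and 150 CPM against 0.245, 2.0 and 3.90 CPM. CG11672 had 706, 414 and 448 CPM against 121, 122 and 191 CPM, and CG6034 had 15.9, 19.2 and 24.5 CPM against 4.05, 4.51 and 6.90 CPM. DESeq2 called these 4 genes in all 6 fits that left a library out. CG34215, CG13078, CG45060, CG2233, CG4325, CG8483 and CG5892 also rose without overlap, in 1 to 3 of those fits. CG43255 rose in 5 of them, from 0, 0.521 and 0.150 CPM to 2.68, 3.44 and 6.57 CPM. CG14309 and CG42780 rested on few counts, and CG42780 was the called gene whose groups overlapped. In 11 of the 43 genes another called gene started within 20 kb, as for CG5883 and CG7252, CG42704 and CG42705, and GstD2, GstD9 and GstD10. Some of these neighbours can share reads, among them Hsp22 with CG4456, CG15199 with asRNA:CR44054, and the GstD genes. The share to be expected over all genes was not computed.

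Leaving out control 112 changed the comparison at many more genes. edgeR then called 879 of 10357 genes (8.49%), 231 higher in induced guts (2.23%) and 648 lower (6.26%), where leaving out any other library gave 0 calls (251 to 397 genes at an unadjusted p under 0.05). DESeq2 called 1941 (18.7%), 939 higher (9.07%) and 1002 lower (9.67%), so the balance of directions depended on the tool. Among edgeR's 879, control 112 lay nearer the induced mean than the mean of 110 and 111 in 180 of the 231 higher and 621 of the 648 lower genes. It reached or passed the range of the induced guts in 130 and 537 of them. As the fit did not use 112, its place in these genes was not fixed by their choice. Choosing genes by controls 110 and 111 can still favour a place towards the induced mean, and the share to be expected was not computed. Library 112 lay nearer the other controls in 8.6% of the 1941 genes that DESeq2 called without it. The same share, by DESeq2, was 40% of 90 genes for induced library 107, and 71.8% to 96.2% for the other 4 libraries. The genes named above behaved otherwise: 112 lay nearer the other controls in 39 of the 43 called with all 6 libraries, a placement that calling with 112 in the fit favours. With induced library 107 left out as well, edgeR called 1178 genes (11.4%), which held 803 of the 879. Why 112 stood apart was not tested, nor was whether its label is right.

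**Figure D3:**
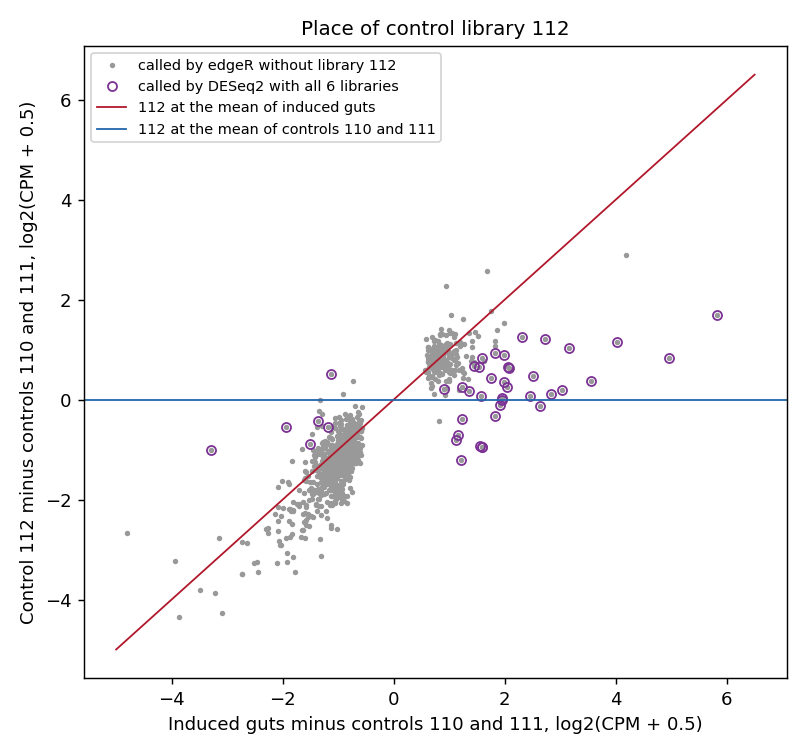
For each gene called by edgeR without control 112 (grey) or by DESeq2 with all 6 libraries (purple rings), the difference of induced guts (horizontal axis) and of control 112 (vertical axis) from the mean of controls 110 and 111, in log2(CPM + 0.5). Most grey points follow the red line, where 112 equals the induced mean, and the ringed genes lie towards the blue line, where 112 equals the other controls.

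The higher genes of the fit without 112 again held detoxification enzymes. From here on, genes and families described by this fit were chosen after their values were seen, except where a gene also kept all 6 libraries apart. Cytochrome P450 genes gave 9 higher and 2 lower calls of 75, against 2.23% and 6.26% of all genes, and the list's median log2 fold change was 0.24. Cyp6a23 stood at 1905, 1525 and 1697 CPM in the induced guts, at 495 and 370 CPM in controls 110 and 111, and at 1230 CPM in 112. Cyp6a17 followed the same order, at 184, 158 and 184 CPM, then 58.2 and 39.7 CPM, and 127 CPM in 112. The log2 fold changes without 112 were 2.0 (standard error 0.24) for Cyp6a23 and 1.86 (standard error 0.22) for Cyp6a17, with adjusted p = 0.0453 for each from edgeR. With 112 both missed the threshold (adjusted p = 0.309 and 0.332 from DESeq2). The remaining higher members were Cyp28d2, Cyp9b2, Cyp28d1, Cyp9b1, Cyp316a1, Cyp6a8 and Cyp28a5. Library 112 reached the induced range in 1 of the 9 and lay nearer the other controls in 2. UDP-glycosyltransferase genes gave 4 higher calls and 1 lower of 31, led by Ugt302E1 at 159, 106 and 126 CPM, 52.2 and 41.0 CPM, and 119 CPM in 112. Library 112 reached the induced range in 3 of these 4 higher genes and lay nearer the other controls in 0. The GstD genes gave 4 higher calls of 10 and 0 lower. Here 112 reached the induced range in 0 of 4 and lay nearer the other controls in 2. With the length offset and without 112 these 3 families kept positive medians of 0.41, 0.60 and 0.98, beside 0.01 over all genes. In that fit 9, 3 and 2 members were higher and 1, 1 and 0 lower, where 124 genes (1.2%) were higher and 267 (2.58%) lower of 391 called (3.78%). The 13 GstE genes differed. Without 112 edgeR called 2 of them higher and 0 lower, with 112 in the induced range for 1. With the length offset their median was -0.12, with 0 higher and 0 lower.

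Genes of carbohydrate digestion and energy metabolism made up part of the lower calls. Of 22 maltases, amylases and other glycosidases 7 were lower and 0 higher by edgeR without 112 (6.26% and 2.23% of all genes), and the list's median log2 fold change was -0.84 (-0.61 with 112). Amy-p, an amylase gene, stood at 295, 385 and 353 CPM in the induced guts, at 996 and 651 CPM in controls 110 and 111, and at 273 CPM in 112. Mal-A6, a maltase gene, stood at 651, 658 and 766 CPM, then 2195 and 1121 CPM, and 765 CPM in 112. Gal, which encodes a beta-galactosidase, was the member of this list with the smallest p whose 6 libraries also kept the groups apart, at 33.0, 40.5 and 36.4 against 103, 93.8 and 44.2 CPM. With all 6 libraries, 2 members of this list were higher and 2 lower in every induced gut. Of the 7 genes, 6 had 112 in or beyond the induced range, the exception being Gal. Of 16 genes of glycolysis and trehalose synthesis 6 were lower and 0 higher by the same fit, among them Tpi, Pfk, Pgk and PyK. PyK, pyruvate kinase, stood at 61.6, 83.5 and 87.8 CPM, then 138 and 167 CPM, and 58.9 CPM in 112. The median of this list was -0.59 without 112 and -0.41 with it. Hex-C, a hexokinase gene of the sugar list, showed the same order, at 9.47, 12.8 and 10.4 CPM, then 33.4 and 32.9 CPM, and 7.05 CPM in 112.

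In mitochondria and peroxisomes, edgeR without 112 gave the citric acid cycle list 4 lower calls of 15 (Idh, SdhB, mAcon1 and Mdh2). The list of fatty acid oxidation and peroxisomes had 6 of 22, with 0 higher in either (6.26% of all genes were lower and 2.23% higher). DESeq2 without 112 called 7 and 8 lower, and 1 higher in each list (9.67% and 9.07% of all genes). The medians of these lists were -0.52 and -0.50 without 112 and -0.35 and -0.28 with it. Idh, an isocitrate dehydrogenase gene, stood at 280, 306 and 276 CPM in the induced guts, 500 and 526 CPM in controls 110 and 111, and 224 CPM in 112. CPT2, the inner carnitine palmitoyltransferase that brings fatty acids to oxidation, kept all 6 libraries apart, at 33.9, 32.3 and 29.9 against 56.6, 58.2 and 36.7 CPM. Mtpalpha and Mtpbeta, the subunits of the mitochondrial trifunctional protein, were both lower (log2 fold changes -0.98 and -1.06 without 112, adjusted p = 0.0566 for each from edgeR). In lipid synthesis SREBP, Lpin and AcCoAS were lower and Dgat2 was higher of 13 genes. SREBP, the sterol-regulated transcription factor of fatty acid synthesis, stood at 26.2, 39.5 and 34.4 CPM, then 70.2 and 77.4 CPM, and 27.0 CPM in 112. Autophagy genes gave 5 lower calls of 20 and 0 higher by edgeR, including Atg9 (6.79, 7.98 and 7.64 CPM, then 22.8 and 28.2 CPM, and 5.55 CPM in 112). By DESeq2 without 112, 6 autophagy genes were lower and 2 higher. In every induced gut 2 were higher and 2 lower than in any control (5.38% and 4.81% of all genes). With all 6 libraries neither edgeR nor DESeq2 called a gene of the glycosidase, glycolysis, citric acid cycle, fatty acid oxidation or autophagy lists (4, 0, 0, 1 and 2 genes in that order had an unadjusted edgeR p under 0.05, each lower). Acox3, which DESeq2 called lower with all 6 libraries, is not a member of the fatty acid oxidation list. With the length offset the lower calls without 112 were 4 glycosidases, 3 glycolytic, 2 citric acid cycle, 3 fatty acid oxidation and 3 autophagy genes, and the lists' medians were -0.65, -0.43, -0.35, -0.28 and -0.05.

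**Figure D4:**
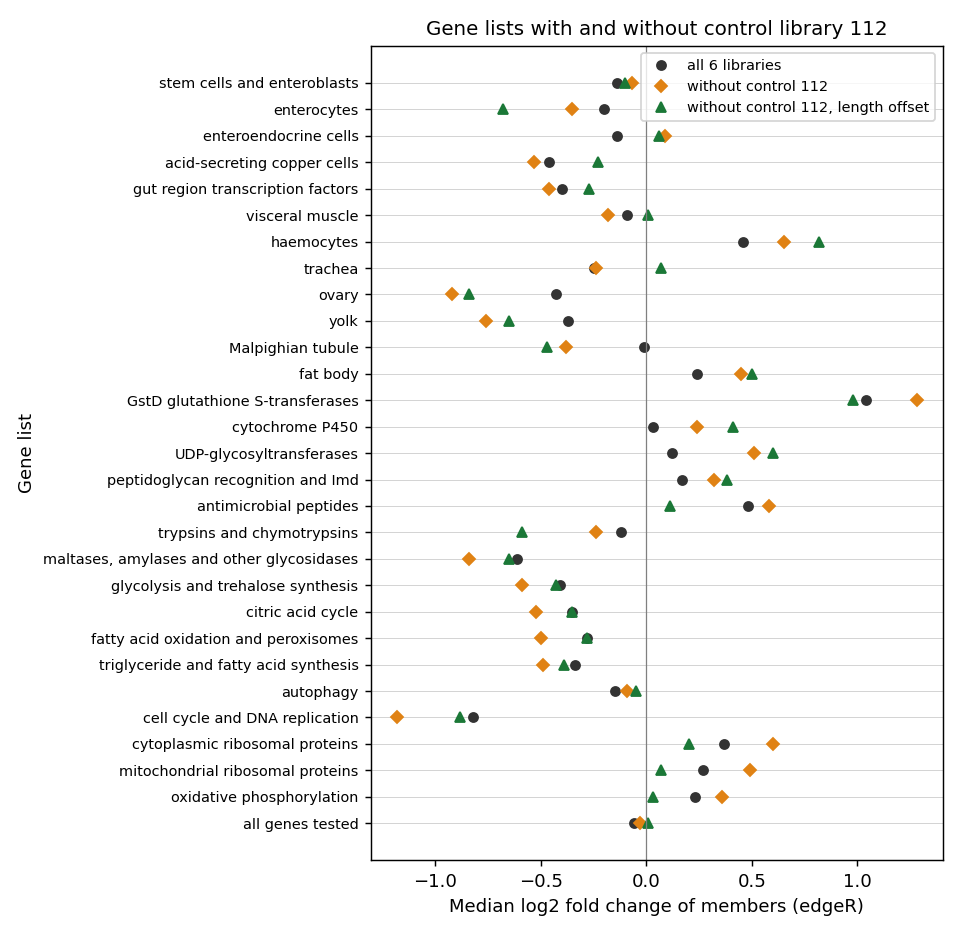
Median edgeR log2 fold change of the members of 28 gene lists and of all genes tested (horizontal axis), with all 6 libraries (black circles), without control 112 (orange diamonds) and without control 112 with length offsets (green triangles). GstD genes lie furthest to the right and cell cycle genes furthest to the left without 112, and the ribosomal and oxidative phosphorylation lists move towards 0 with the length offset.

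Among markers of gut cell types, some enterocyte transcripts were lower. Of 11 enterocyte genes 3 were lower and 0 higher by edgeR without 112 (6.26% and 2.23% of all genes). By DESeq2 without 112, 4 were lower and 1 higher (9.67% and 9.07% of all genes). In the edgeR fit with the length offset and without 112, 1 was lower, and with all 6 libraries neither tool called any (2 had an unadjusted edgeR p under 0.05, both lower). Myo61F, a brush border myosin gene, stood at 262, 275 and 273 CPM in the induced guts, at 580 and 562 CPM in controls 110 and 111, and at 290 CPM in 112. mesh, a gene of the smooth septate junctions between gut cells, stood at 235, 295 and 301 CPM, then 524 and 505 CPM, and 263 CPM in 112. nub, encoding the POU factor that maintains enterocyte identity, was at 25.9, 21 and 17.8 CPM, 43 and 42.2 CPM, and 33.4 CPM in 112. Only nub kept 112 nearer the other controls. mex1, another gene of midgut absorptive cells, went the other way, at 458, 309 and 403 CPM, then 277 and 185 CPM, and 533 CPM in 112. Without 112 it passed by DESeq2 (adjusted p = 0.0369) and not by edgeR (adjusted p = 0.125). Among 15 transcription factor genes of gut regions vnd, exex and GATAe were lower by edgeR without 112 (6.26% of all genes were), and 112 lay in or beyond the induced range for all 3. Of the 15, 1 was lower with the length offset and without 112, and with all 6 libraries neither tool called any (1 had an unadjusted edgeR p under 0.05).

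Stem cell and enteroblast markers gave 0 calls of 10 in either direction by edgeR or DESeq2, with or without 112 (0 at an unadjusted p under 0.05 with all libraries), and their median log2 fold change was -0.14 (-0.07 without 112). Delta, the Notch ligand that marks stem cells, stood at 7.14, 12.9 and 7.64 CPM after induction and 10.1, 12.7 and 11.8 CPM in controls. The list's mean log2 CPM over members came to 2.95, 3.25 and 3.05 after induction and 3.41, 3.12 and 3.12 in control guts, so the groups overlapped. esg could not be matched in the table and was left out. Enteroendocrine markers gave 0 calls of 16 by either tool with all libraries, and by DESeq2 2 higher without 112 (9.07% of all genes were). Tk, the tachykinin hormone gene, stood at 25.9, 19.5 and 20.9 against 28.4, 28.4 and 29.2 CPM and NPF, a neuropeptide gene, at 52.7, 35.8 and 39.8 against 26.8, 29.3 and 52.6 CPM. The median of this list changed sign with 112, from -0.14 with it to 0.09 without it. Of 4 genes of the acid-secreting copper cells, lab and Ptx1 were lower in every induced gut (4.81% of all genes were), lab at 7.68, 5.43 and 6.16 against 9.45, 11.5 and 9.75 CPM. edgeR and DESeq2 called 0 of the 4 with all libraries, and both lower genes had an unadjusted p under 0.05. Without 112, edgeR called 1 of 15 visceral muscle genes lower (Act87E) and 1 of 6 haemocyte genes higher (Pxn), beside 6.26% and 2.23% of all genes. DESeq2 without 112 called 4 muscle genes higher and 1 lower and 2 haemocyte genes higher, beside 9.07% of all genes higher and 9.67% lower. The muscle call of edgeR was lost with the length offset and without 112, where 1 haemocyte gene was higher. With all 6 libraries neither tool called a gene of either list (0 had an unadjusted edgeR p under 0.05). In whole guts fewer cells of a type and less RNA per cell cannot be told apart.

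**Figure D5:**
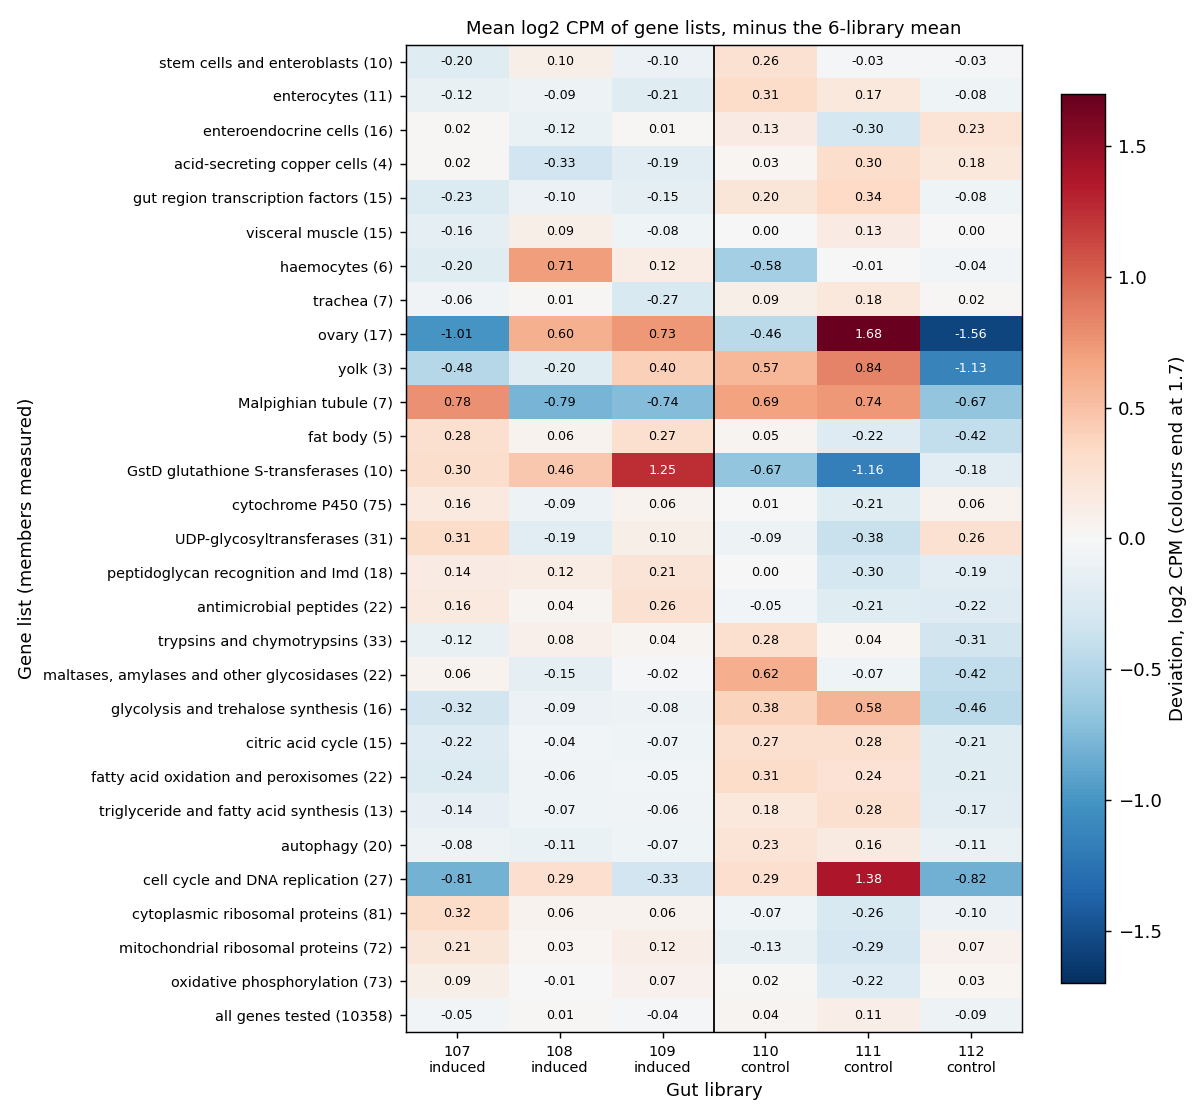
Mean log2 CPM of each gene list in each gut library minus the mean over the 6 libraries (colour and printed value, columns are libraries, the number of measured members stands beside each list). GstD genes are above 0 in the 3 induced guts and below 0 in the 3 controls, whereas for the glycolysis list control 112, at -0.46, lies with induced 107, at -0.32.

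Cell cycle and DNA replication genes had a low median, and their extremes fell in the same libraries as those of ovary transcripts. All 27 measured members had log2 fold changes below 0, with a median of -0.82 (-1.18 without 112), and 3 of them (CycB3, Mcm2 and aurB) were lower without 112 by edgeR (6.26% of all genes were). None of the 27 was called by edgeR with the length offset and without 112, DESeq2 without 112 called 9 lower, and the median with the offset was -0.88. No member kept the groups apart when all 6 libraries were used. The list's mean log2 CPM over members came to 2.24, 3.34 and 2.72 after induction and 3.34, 4.43 and 2.23 in control guts. The ovary markers were lowest in the same 2 libraries, 107 (1.0) and 112 (0.45), and highest in the same control, 111 (3.69). The other libraries did not follow: 110 had the same cell cycle level as 108 (3.34) with fewer ovary transcripts (1.55 against 2.61), and 109 had a lower cell cycle level (2.72) with more (2.74). In library 111 the eggshell gene Cp19 reached 1421 CPM, against 0.357 to 7.80 CPM elsewhere. Cp36, another eggshell gene, stood at 245 CPM in 108 and 297 CPM in 111 and at most at 5.89 CPM in the other 4, and the vitelline membrane gene Vm26Aa at 229 CPM in 109 and at most at 15.0 CPM in the other 5. Dividing cells of the ovary also express cell cycle genes, and the part of ovary RNA in this list was not tested. Cp15, Cp18 and Cp19 were themselves 3 of the lower calls without 112. Yolk protein genes were likewise lowest in 112 and 107 and highest in 111, with mean log2 CPM of 7.38, 7.66 and 8.26 in induced and 8.43, 8.70 and 6.73 in control guts.

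Ribosomal protein and respiratory chain genes had positive medians that were smaller with the length offset. Of 81 cytoplasmic ribosomal protein genes, 22 were higher in every induced gut and 0 lower (5.38% and 4.81% of all genes), and the median log2 fold change was 0.37 (0.60 without 112). Tests without 112 disagreed on them, as edgeR gave 1 higher call and 6 lower (2.23% and 6.26% of all genes), and DESeq2 53 higher and 8 lower (9.07% and 9.67%). RpL22 was lower, at 159, 148 and 149 CPM in induced guts, 264 and 333 CPM in controls 110 and 111, and 141 CPM in 112, and RpL36A was higher, at 1709, 1142 and 1185 CPM, 786 and 651 CPM, and 1420 CPM in 112. The 72 mitochondrial ribosomal protein genes had a median of 0.27 (0.49 without 112) with 8 higher and 0 lower in every induced gut (11.1% and 0%). Without 112, edgeR called 1 of them higher and 0 lower, and DESeq2 23 higher and 1 lower. The 73 oxidative phosphorylation genes had a median of 0.23 (0.36 without 112) with 8 higher and 2 lower (11% and 2.74%). Without 112, edgeR called 0 of them higher and 4 lower, and DESeq2 27 higher and 9 lower. Members of these lists are short, with median exon lengths of 927, 783 and 871 bases. With the length offset and without 112 their medians were 0.20, 0.07 and 0.03, beside 0.01 over all genes. The offset was fitted with these genes included, so length and a change of these genes cannot be told apart.

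The induction effect was then compared between the gut and the fat body, over the 12 libraries of both tissues. edgeR's interaction test called 0 of 10005 genes (0%), with 342 (3.42%) at an unadjusted p under 0.05, and DESeq2 called 13 (0.13%). The chitin-binding genes CG5883, CG7252 and obst-H were not in the fat body table and had no such test. For Timp the gut log2 fold change was 1.74 (standard error 0.38) and that of the fat body -0.34 (standard error 0.20), a difference of 2.15 on the log2 scale by DESeq2 (standard error 0.51, adjusted p = 0.0233). CG42704 and CG42705, which rose in the gut, are abundant in fat body libraries, at 1613 to 3074 CPM for CG42704. Whether fat body RNA in the gut libraries contributed to the rise of these genes was not tested. A set of 87 genes at 100 CPM or more in fat body and at least 50 times their gut level summed to 1034, 710 and 840 CPM in induced and 790, 533 and 601 CPM in control guts, which is 0.52% to 1.01% of their fat body level.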

How the data were processed

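Guts and fat bodies were sequenced as poly(A) RNA with unique molecular identifiers, from pools of 12 flies. Per the study's methods the authors removed duplicate reads, aligned reads with HISAT2 to release 6 of the fly genome and counted them with featureCounts, and left out genes without counts or not analysed in an earlier overexpression experiment. The deposited tables hold counts per gene (10358 in gut, 11056 in fat body) and, as a score on a log2-like scale, variance-stabilised values that the authors computed with DESeq2. Reads were 5916313 to 10254951 per gut library. The strand setting of the counting is not given in the sources used here.

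Counts were fitted with edgeR 4.0.16 in R 4.3.3 (quasi-likelihood F-test, TMM factors, at least 1 count over the 6 gut libraries, no covariate) with Benjamini-Hochberg adjustment at 10% FDR. DESeq2 1.42.0 (Wald test) on the same counts and limma 3.58.1 (trend) on the deposited scores were run beside it. The independent hypothesis weighting of the study was not run. Log2 CPM had a prior count of 2. The interaction of tissue and induction was fitted over 12 libraries and 10005 genes. Positions and exon lengths came from the Ensembl release 6 annotation by gene identifier for 10279 genes. Counts were identical in 102 groups of genes. Simulated data tested edgeR and DESeq2 on 3 gut libraries against 3 and on 3 against 2. edgeR was also tested with the length offset on 3 against 2, and for its interaction test. Other fits, DESeq2's interaction test among them, were not simulated. With 3 against 3, edgeR recovered 17 of 100 genes changed 2-fold and 78 of 100 changed 4-fold, and DESeq2 28 and 86. edgeR also called 15 unchanged genes and DESeq2 36. With 3 against 2, edgeR recovered 25 and 84 and called 15 unchanged genes, and DESeq2 recovered 40 and 87 and called 38 unchanged. For both tools unchanged genes thus made up more than the intended 10% of calls, and by more for DESeq2. The interaction test of edgeR recovered 5 of 100 at 2-fold and 36 of 100 at 4-fold.

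The 56 gene lists and the members described were chosen with earlier results of these data known, and 45 list entries were not matched. Genes were named by a rule: pnt, every edgeR call, up to 30 DESeq2 calls with groups apart by size of change, and up to 4 members per list with groups apart and an unadjusted edgeR p under 0.05. Many genes printed lie outside this rule, among them DESeq2 calls of smaller size and most genes described by the fits without library 112, and these were chosen after their values were seen. Lists were described by counts and medians with no test. Alternatives were other size factors, a mean of at least 10 counts, no filter, 5% FDR, 1 fit of 12 libraries and leaving out each library. The length offset (a smooth of each library's deviation on exon length) and the fits built on leaving out 112 were added after the data were seen.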

Additional observations from a re-analysis of the deposited data

Results flagged for a closer look

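The induction effect differed between gut and fat body at 10% FDR in 13 genes by the interaction test of DESeq2, whereas edgeR's interaction test called 0 genes of 10005 (342 at an unadjusted p under 0.05). Values are the log2 fold change in gut minus that in fat body. The difference was 5.85 for CG42705 and 6.15 for CG42704, a neighbouring pair on the X chromosome, with gut log2 fold changes of 5.35 and 5.48 and fat body ones of -0.40 and -0.63 by edgeR. It was 3.97 for CG43255, 2.75 for CG15199 and 2.1 for asRNA:CR44054, which overlaps it, 4.86 for CG42780, 2.33 for CG6034, 2.15 for Timp, 5.96 for CG18258 and 1.32 for CG16700, in each of which the gut value was the higher. In 3 genes the fat body value was the higher. The difference was -4.90 for Arc1, a capsid-forming gene related to retrotransposons (0.24 in gut and 5.20 in fat body), -5.86 for its neighbour CR10102 (-0.84 and 5.04), and -3.61 for CG44013 (-0.66 and 2.95).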

How the results depend on the processing

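No paired analysis was possible because the labels carry no replicate or block number. The number of calls, 5 by edgeR, became 43 by DESeq2, 0 at 5% FDR and 0 with the length offset. It was 4 to 6 under RLE factors, library totals, a mean of at least 10 counts, no filter, limma or 1 fit of 12 libraries. It ranged from 0 to 879 when each library was left out. In the fit of 12 libraries the called genes were others, namely CG42705, CG42704, CG4325, CG15199 and CG43255. There lncRNA:CR44138, lncRNA:CR44310 and CG32302 no longer passed, and Hsp70Bb and CG5883 had no value. DESeq2's 43 calls ranged from 18 to 1941 when each library was left out. Without 112, edgeR's 879 calls became 391 with the length offset (358 of them shared) and 1941 by DESeq2 (833 of the 879 shared), and other settings gave 736 to 1178. The higher share of those calls was 26.3% by edgeR, 18.9% with library totals, 31.7% with the length offset and 48.4% by DESeq2. The log2 fold change of pnt stayed between -0.41 and -0.14 and never passed. Interaction calls went from 0 to 13 by DESeq2 and ranged from 0 to 3 when each library was left out (1 without 101, 3 without 107 and 2 without 110). Among named genes, 1125 alternative values stayed on the same side of the threshold as edgeR with all libraries, which called 5 of these genes, 246 passed where it did not, 35 no longer passed and none changed sign with a call. Of 56 list medians, 31 moved by more than the spread between libraries under at least 1 setting. The cause of these changes was not tested. With 3 libraries per group, a gene that missed the threshold is not shown to be unchanged.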

Other observations

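Some secretory pathway genes were higher in the fit without control 112. The lists here were written after the values were seen, so that their counts have no test. Of 19 genes of protein translocation into the endoplasmic reticulum and signal peptide removal, edgeR without 112 called 6 higher (2.23% of all genes were) and 2 lower (6.26%). Sec61gamma, a subunit of the translocation channel, stood at 209, 150 and 185 CPM in the induced guts, 90.8 and 82.5 CPM in controls 110 and 111, and 218 CPM in 112. The list's median log2 fold change was 0.51 without 112, 0.21 with it and 0.16 without 112 with the length offset, where 1 gene was higher and 2 lower. Of 6 oligosaccharyltransferase genes, Dad1 and Ostgamma were higher, Dad1 at 70.9, 48.5 and 61.2 CPM, then 32.6 and 28.9 CPM, and 66.7 CPM in 112. Of the 6, 1 was higher with the length offset. Library 112 lay in or beyond the induced range for both genes.

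Genes of cytosolic protein synthesis and folding were lower in part. Of 20 cytosolic aminoacyl-tRNA synthetases, which charge transfer RNAs, 5 were lower and 0 higher by edgeR without 112 (6.26% and 2.23% of all genes). Their median log2 fold change was -0.56 (-0.27 with 112, and -0.28 without 112 with the length offset, where 4 were lower). LysRS stood at 18.9, 22.3 and 19.97 CPM in the induced guts, 36.3 and 42.6 CPM in controls 110 and 111, and 10.4 CPM in 112. Of 8 CCT chaperonin genes, which fold actin and tubulin, 3 were lower (CCT8, CCT3 and CCT7), and of 13 eIF3 translation initiation genes 3 were lower (eIF3a, eIF3d1 and eIF3c). The edgeR fit with the length offset called 0 of the CCT genes (median -0.50) and 2 of the eIF3 genes. For all 11 of these genes 112 reached the induced range.

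Of 8 alkaline phosphatase genes 4 were lower and 0 higher by edgeR without 112 (6.26% and 2.23% of all genes). The list's median was -0.93 without 112 and -0.67 with it. With the length offset and without 112, 2 were lower. Alp9 stood at 267, 325 and 289 CPM in the induced guts, 719 and 680 CPM in controls 110 and 111, and 330 CPM in 112, and Alp10 at 225, 414 and 349 CPM, then 715 and 607 CPM, and 346 CPM in 112. Of 13 chromatin remodelling genes 5 were lower (mor, Chd1, Bap170, Mi-2 and Snr1) and 0 higher, and all 5 passed with the length offset too. The ATP-dependent remodeller gene Chd1 stood at 9.11, 8.32 and 9.78 CPM, then 17.4 and 27.1 CPM, and 9.0 CPM in 112. Of 9 alpha-esterase genes 1 was higher (alpha-Est10) and 1 lower (alpha-Est1).

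The lysozyme gene LysP stood at 112, 80.1 and 33.1 CPM after induction and at 2.58, 3.90 and 26.8 CPM in controls 110, 111 and 112, whereas LysX stood at 154 CPM in 112 and at 14.6 to 32.2 CPM in the other 5 libraries. LysP overlaps mwh on the other strand. Npc1b, which encodes a sterol transporter of the midgut, stood at 450, 590 and 588 CPM against 1200, 638 and 840 CPM, so that the groups did not overlap, and sut2, a sugar transporter gene, at 20.5, 21.1 and 21.8 CPM against 13.4, 10.5 and 8.70 CPM, with 112 the lowest library. Genes in this paragraph were chosen after their values were seen.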
